A study of Mus musculus with 6 samples.

Results

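The annexins are a family of calcium-dependent, phospholipid-binding proteins, and 10 annexin genes, Anxa1 to Anxa8, Anxa10 and Anxa11, were followed here in 6 mouse lung tumour lines. The family was selected on its measured SMC against non-SMC differences in these same arrays. Probes were assigned to the genes through their transcript accessions, and all 10 genes were found, on 12 probes, among the 18749 named genes of the array. The lines were grown from tumours of C57BL/6J mice labelled Rb1L/L and Trp53L/L, a model of small cell lung carcinoma, and both groups share these alleles. The groups were 3 lines labelled SMC and 3 lines labelled non-SMC, arranged by the labels in 3 pairs of 1 SMC and 1 non-SMC line. By label, the mice of pairs 1 and 3 were female and the mouse of pair 2 was male. The sources used here do not spell out the abbreviations, nor how the alleles were deleted, how old the mice were, or whether a line is a clone. In such bulk samples, fewer cells of a type and less RNA per cell cannot be told apart. Nothing beyond the pair labels says how the lines of a group were related, so errors and p-values speak only for these lines. In the paired fit they measure the spread of the differences between pairs, moderated with the spread of all features.

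Annexins carry repeated domains that bind calcium ions and, through them, membranes rich in acidic phospholipids such as phosphatidylserine. They act as scaffolds beneath the plasma membrane, in exocytosis and endocytosis and in the sealing of membrane wounds, and several of them bind S100 proteins. Annexin A1 is also known as a glucocorticoid-induced inhibitor of inflammation, and annexin A2 as a receptor that gathers plasminogen and its activators on the cell surface. In the lung, several annexins are abundant in epithelial and mesenchymal cells. On GRCm38.p6 the genes are spread over several chromosomes, but Anxa7 (chr14:20455261-20480133), Anxa11 (chr14:25842127-25886804) and Anxa8 (chr14:34085979-34100571) share chromosome 14.

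Each line was measured on 1 Agilent array with 1 dye, and values are given on a log2 scale on which 0 is the array's own 75th percentile. Signals of different genes come from different probes and are not set against each other. Of 41174 probes, 64.1% to 68.5% were well above background on an array, and no spot was saturated. The fit covered 19847 features, that is, genes by their brightest probe and unnamed probes, and its median difference (SMC minus non-SMC) was 0.18, or 0.08 to 0.18 with other scalings, background correction or the deposited values. One slide carried 4 arrays, those of SMC replicates 1 and 2 together with non-SMC replicates 2 and 3, and the arrays of SMC replicate 3 and of non-SMC replicate 1 were each on another slide.

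Markers of the labelled tumour type were checked next. Among 10 neuroendocrine markers, 9 or 10 were detected in each SMC line and 8 to 10 in each non-SMC line, and their summed signal, with the 75th percentile of the array as 1, was 238 to 363 in SMC lines and 20.6 to 141 in non-SMC lines, the highest non-SMC value being that of replicate 2. The 10 fibroblast and mesenchymal markers summed to 0.564 to 2.58 in SMC lines, with Col1a1 and Col3a1 well above background in none of them, and to 294 to 732 in non-SMC lines, where all 10 were detected. Not every marker followed the sums. Thy1 was higher in SMC replicates 1 and 3 (-0.28 and 0.21, log2) than in their partners (-2.27 and -2.49), though lower in SMC replicate 2. Dcn was higher in SMC replicate 1 than in its partner (0.66 against -4.58), and lower in SMC replicates 2 and 3. For 7 epithelial markers the sum was 190, 383 and 5.10 in SMC replicates 1 to 3, against 1.43, 409 and 473 in non-SMC replicates 1 to 3, so the lines with low epithelial signal were SMC replicate 3 and non-SMC replicate 1. Leukocyte and macrophage markers summed to 0.174 to 1.59 in SMC lines and 1.89 to 15.2 in non-SMC lines, with 4 to 9 of 11 detected in SMC lines and 5, 7 and 10 in non-SMC replicates 1 to 3. Most of the non-SMC sum was the signal of Cd14, while Ptprc, Tyrobp, Lyz2 and Itgam were not well above background in non-SMC replicates 1 and 2. In non-SMC replicate 3 these genes were well above background (-3.54, -0.26, -1.05 and -4.14, log2). Lyz2 was highest in SMC replicate 3 (0.12, log2). The 4 mesothelial markers summed to 0.0333 to 0.0636 in SMC lines and to 1.13, 46.9 and 58.9 in non-SMC replicates 1 to 3, most of it from Msln, while Upk3b was well above background in no line. The 7 alveolar and club cell markers gave 0.744 to 14.6 in SMC lines and 3.39 to 23.5 in non-SMC lines. For the 6 endothelial markers the sums were 0.315 to 21.0 and 0.0792 to 11.9, and Pecam1, Cdh5 and Emcn were well above background on no array. The fibroblast sums, and the Msln and Cd14 signals that carry the mesothelial and leukocyte sums, thus lay on the same side as the lower annexins described next. The neuroendocrine sums lay on the other side, and the part of any of these in the annexin differences was not tested.

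**Figure D1:**
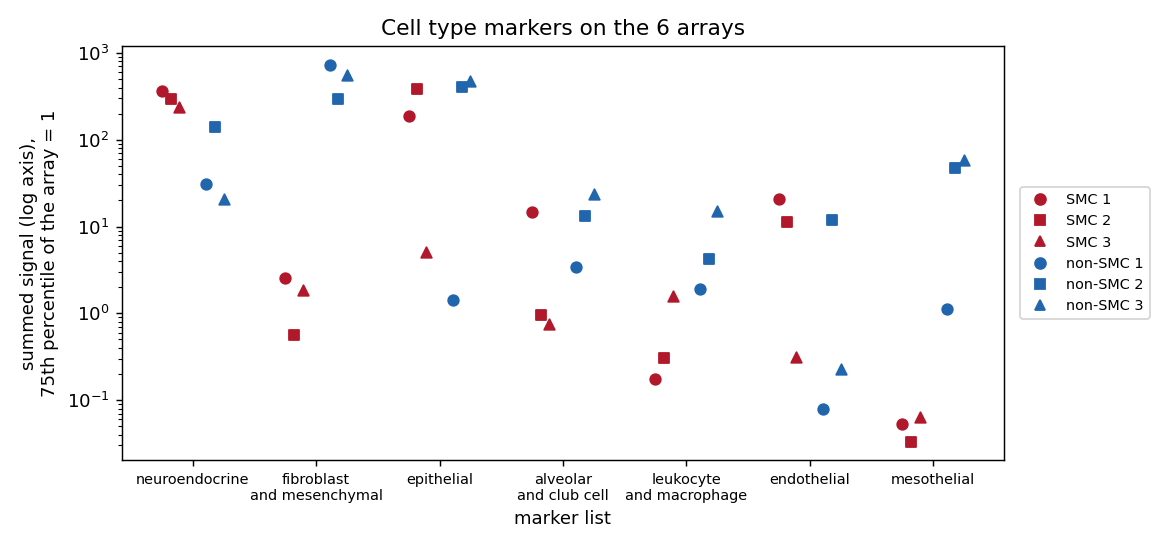
Summed signal of 7 lists of cell type markers on each array (log axis, 75th percentile of the array = 1), with SMC lines in red left of non-SMC lines in blue. The fibroblast and mesenchymal sums of the SMC lines (0.564 to 2.58) lie below those of the non-SMC lines (294 to 732), and the epithelial sums of SMC replicate 3 and non-SMC replicate 1 lie below those of the other lines.

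Of the 10 annexins, 9 passed the filter on dim probes (the probe had to be well above background throughout either group), and Anxa10 did not. In 7 of the 9 (Anxa1, Anxa2, Anxa3, Anxa5, Anxa6, Anxa7 and Anxa8) every SMC line lay below every non-SMC line, while 15.4% of all features had their groups separated in that direction. Anxa11 was separated the other way, as 22.8% of features were, and Anxa4 overlapped. The separation of the 7 lower genes fixes that they were lower in the SMC line of all 3 pairs, as were 21.9% of features. The median difference over the 9 genes was -4.67, and their differences ran from -13.19 for Anxa3 to 0.74 for Anxa11. In the paired limma fit over all features, 2 of the 9, Anxa3 and Anxa8, lay past the threshold as lower and 0 as higher, against 3.03% and 0.156% of all features. The family was chosen with this comparison known, so these counts and the differences below describe the genes and carry no test. Without pair 1 only Anxa8 was past the threshold and without pair 3 none was, and with the pair left out of the fit Anxa2 and Anxa5 were past it too (4 genes). Without pair 3 no feature of any kind passed, while the differences of Anxa3 and Anxa8 were -12.73 and -13.10.

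**Figure D2:**
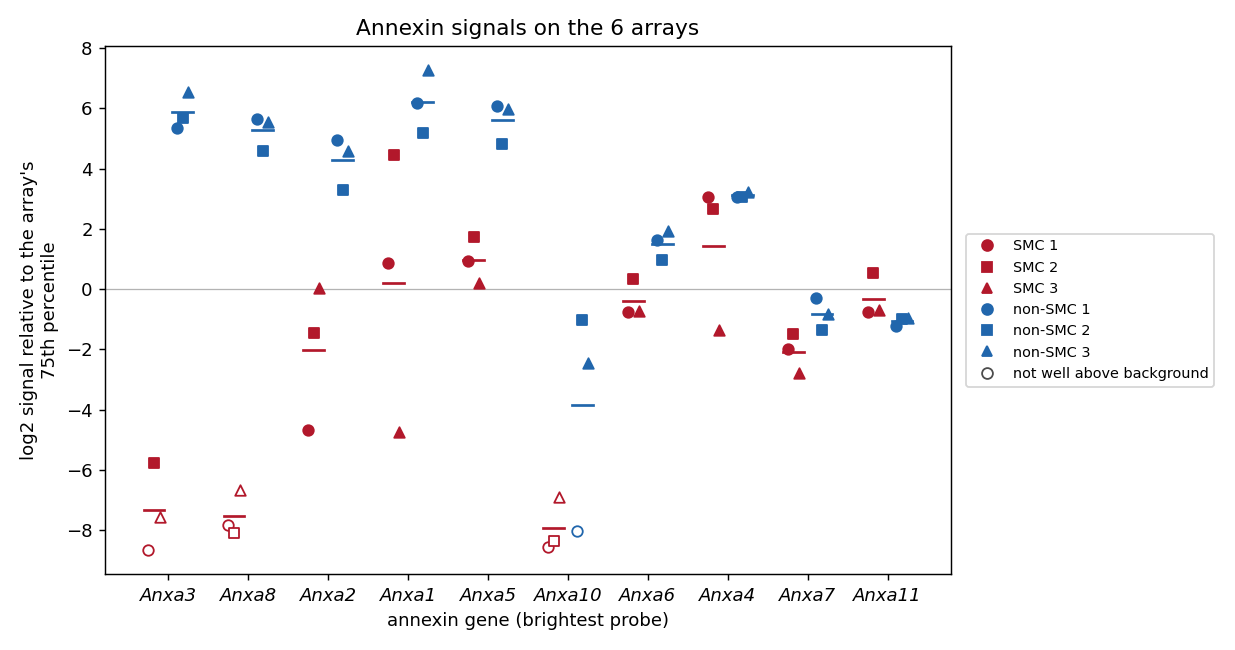
Log2 signal of each annexin (brightest probe, relative to the 75th percentile of its array) on the 6 arrays, with SMC lines in red left of non-SMC lines in blue, group means as bars and open symbols for signals not well above background. Anxa3 and Anxa8 have the widest gap between the groups, and the SMC lines are most spread for Anxa1.

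The widest separation was that of Anxa3 and Anxa8. Anxa3, an annexin first described as an anticoagulant and phospholipase-inhibiting protein, had signals of -8.66, -5.76 and -7.57 in SMC replicates 1 to 3, against 5.35, 5.68 and 6.55 in non-SMC replicates 1 to 3. All 3 non-SMC lines were far above all SMC lines, of which only replicate 2 was well above background, at an intensity of 10.9 against 29293 in its non-SMC partner. The difference was -13.19 ± 0.67 (SE, 3 pairs), and -12.02 with dim signals raised to the lowest signal well above background on their array. Anxa8, known from epithelia and as a gene expressed in some leukaemias, had -7.84, -8.10 and -6.68 in the SMC lines, against 5.66, 4.60 and 5.54 in the non-SMC lines. Its probe is spotted 10 times per array, and in the non-SMC lines all 10 spots were well above background with an SD between spots of 0.028 to 0.076 (log2), whereas in SMC replicates 1, 2 and 3 the spots well above background numbered 0 of 9, 0 of 10 and 1 of 10. Because no SMC line had a usable level, the comparison is a bound, which holds for the main processing only. In that processing Anxa8 signal was lower by at least 3027-fold in the SMC group, the fitted difference being -12.80 ± 0.38 (SE). With normexp background correction, which raises dim signals, the differences were -9.22 for Anxa3 and -8.48 for Anxa8.

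Anxa2 and Anxa1 were also separated, but with SMC lines that differed widely among themselves. Anxa2, which forms a complex with S100a10 at the plasma membrane, had -4.68, -1.44 and 0.04 in SMC replicates 1 to 3, against 4.94, 3.30 and 4.57 in non-SMC replicates 1 to 3. All 6 signals were well above background, and the SMC lines covered a range of 4.72, against 1.64 in the non-SMC lines. The within-pair differences of -9.62, -4.74 and -4.53 correspond to 788-fold, 26.7-fold and 23.2-fold lower signals in the SMC lines of pairs 1 to 3, and their mean was -6.30 ± 1.20 (SE). A second Anxa2 probe gave -6.01, with the same order of lines in both groups.

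Anxa1, the glucocorticoid-regulated annexin once called lipocortin, was the least uniform. Its signal was 0.88, 4.45 and -4.74 in SMC replicates 1 to 3, against 6.18, 5.18 and 7.27 in non-SMC replicates 1 to 3. SMC replicate 2 therefore lay only 0.73 below the lowest non-SMC line, its own partner, while SMC replicate 3 differed from its partner by -12.01, a 4131-fold lower signal. The intensities behind these values were 1282, 13009 and 18.1 in the SMC lines and 42309, 20677 and 84537 in the non-SMC lines. The mean difference was -6.01 ± 2.31 (SE), and it was -3.01 without pair 3 and -8.65 without pair 2. The epithelial marker sum was 5.10 in SMC replicate 3, the lowest line for Anxa1, and 1.43 in non-SMC replicate 1, and its part in the Anxa1 signals was not tested.

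Anxa5 and Anxa6 differed less, with tighter groups. Anxa5, the phosphatidylserine-binding protein used to stain dying cells, had 0.93, 1.73 and 0.20 in the SMC lines, against 6.09, 4.80 and 5.99 in the non-SMC lines. The pair differences were -5.15, -3.07 and -5.78, with a mean of -4.67 ± 0.64 (SE), which is a 25.4-fold lower signal in SMC lines. Anxa6, which is built of a larger number of annexin repeats than other members, had -0.76, 0.34 and -0.74 in the SMC lines, against 1.63, 0.97 and 1.91 in the non-SMC lines. Its difference of -1.89 ± 0.52 (SE) was 3.71-fold, and in pair 2 it was 1.55-fold. Both genes were measured well above background on all 6 arrays, and for both the groups did not overlap.

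The remaining annexins showed small, mixed or 1-line differences. Anxa7, known as synexin for its role in fusing secretory granules of chromaffin cells, had -1.97, -1.47 and -2.77 in the SMC lines, against -0.29, -1.36 and -0.84 in the non-SMC lines, a difference of -1.24 ± 0.49 (SE). The highest SMC line lay 0.11 below the lowest non-SMC line, and pair 2 gave that same small difference, against -1.68 and -1.93 in pairs 1 and 3. Anxa11, which binds the calcium sensor ALG-2 and tethers RNA granules to lysosomes, had -0.77, 0.53 and -0.71 in the SMC lines, against -1.21, -1.00 and -0.97 in the non-SMC lines. It was the only one of the 9 tested annexins with a positive mean difference, 0.74 ± 0.39 (SE), or 1.67-fold, and the gap between the groups was 0.20.

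Anxa4, an annexin of secretory epithelia, had 3.05, 2.64 and -1.36 in SMC replicates 1 to 3, against 3.04, 3.07 and 3.21 in non-SMC replicates 1 to 3. In SMC replicate 1 it was level with its partner (difference 0.01), and its mean difference of -1.66 ± 1.06 (SE) came mostly from SMC replicate 3, where the signal was 23.8-fold lower than in its partner. Without pair 3 the difference was -0.21. A second Anxa4 probe showed the same pattern, with pair differences of 0.16, -0.07 and -4.79. The epithelial marker sum was low in SMC replicate 3 and in non-SMC replicate 1, and its part in the Anxa4 signals was not tested.

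Anxa10, an annexin of gastric epithelium, was well above background only in non-SMC replicates 2 and 3. Its signals were -8.54, -8.37 and -6.88 in SMC lines, against -8.02, -1.02 and -2.45 in non-SMC lines. The 2 lines that had it were also the non-SMC lines with the higher epithelial marker sums and the higher Msln signals (5.55 and 5.88, against 0.15 in non-SMC replicate 1, log2). The other 3 mesothelial markers were not well above background in these 2 lines, and the part of other cells in the Anxa10 signal was not tested. Because of the filter it entered no count above. With no usable level in any SMC line, its mean signal in the main processing was at least 5.53-fold lower in SMC lines. The groups overlapped, however, and non-SMC replicate 1 had no usable level either.

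**Figure D3:**
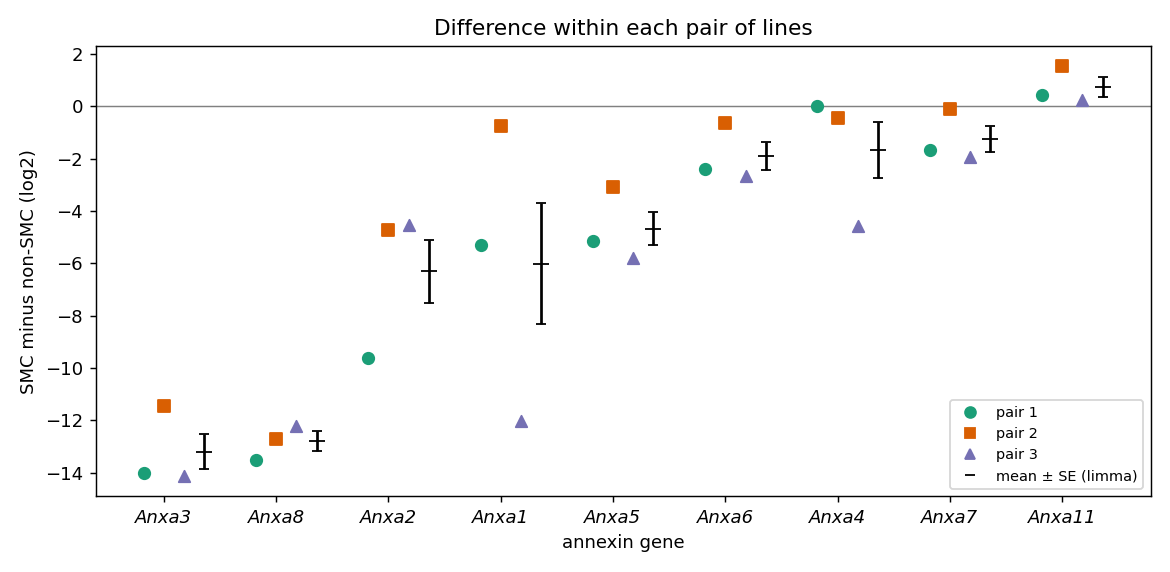
SMC minus non-SMC difference (log2) of the 9 tested annexins within pairs 1, 2 and 3, with the mean and its limma SE to the right of each gene. Anxa3 and Anxa8 lie between -14.12 and -11.45 in all pairs, while Anxa1 runs from -12.01 in pair 3 to -0.73 in pair 2.

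The pairs differed in how far apart their lines were. The median difference of the 9 annexins was -5.15 in pair 1, -0.73 in pair 2 and -4.57 in pair 3, beside medians over all features of 0.06, 0.18 and 0.25. Pair 2 held the smallest absolute difference for 5 of the 9 genes (Anxa1, Anxa3, Anxa5, Anxa6 and Anxa7). More than 2-fold lower signals in the SMC line were found for 7, 4 and 8 of the 9 genes in pairs 1, 2 and 3. From the side of single lines, SMC replicate 2 was the highest SMC line for 6 of the 9 annexins and non-SMC replicate 2 the lowest non-SMC line for 6. Non-SMC replicate 2 was also the non-SMC line with the highest neuroendocrine marker sum, 141 against 30.8 and 20.6. The part of that marker signal in the pair 2 differences was not tested. The 3 non-SMC lines spanned 1.20 for Anxa3 and 1.06 for Anxa8. Among them non-SMC replicate 2 was lowest for Anxa8 (4.60 against 5.66 and 5.54) but not for Anxa3. Pair 2 is the only pair labelled male and the only one with both lines on the same slide. Sex, slide, pair and the marker content of its lines therefore cannot be told apart.

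The spread between lines was larger in the SMC group for all 9 tested annexins. The SD was 4.63 in SMC lines and 1.05 in non-SMC lines for Anxa1, 2.44 and 0.09 for Anxa4, and 2.41 and 0.86 for Anxa2. For Anxa5 the SDs were close, 0.77 and 0.71. Over all features, 40.8% had the larger SD in the SMC lines (41.9% of the 16320 features detected on all arrays), and in Anxa3 and Anxa8 the SMC spread includes signals not well above background.

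Within the slide shared by 4 arrays, with 2 lines of each group, all 9 differences kept their sign. They were -13.33 for Anxa3, -13.04 for Anxa8, -7.00 for Anxa2, -3.56 for Anxa1, -4.06 for Anxa5, -1.65 for Anxa6, -0.29 for Anxa4, -0.62 for Anxa7 and 0.86 for Anxa11. The differences of Anxa1, Anxa4, Anxa5, Anxa6 and Anxa7 were smaller there, where SMC replicate 3 and non-SMC replicate 1 are absent. In pairs 1 and 3 the lines lay on different slides.

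Promoter windows were looked up because 7 annexins lay on the same side in the SMC lines and Anxa11 on the other. RefSeq windows of 300 bases on GRCm38.p6, most of each upstream of a transcript start, were at hand for 8 of the 10 genes (10 windows), with none for Anxa3 and Anxa6. The windows of Anxa8 and Anxa2, 2 genes far lower in SMC lines, of Anxa1, with the most uneven SMC lines, and of Anxa11, the gene separated the other way, are printed 5′ to 3′ on the strand of the gene. Capitals mark matches on either strand to 4 motifs. The letters searched were TGANTCA for AP-1 factors, with GGAATG standing for TEAD factors. The GC box was searched as GGGCGG, and the TATA box was searched as TATAAA. Matches of different motifs could overlap.
Anxa8, chr14:34085729-34086028, plus strand: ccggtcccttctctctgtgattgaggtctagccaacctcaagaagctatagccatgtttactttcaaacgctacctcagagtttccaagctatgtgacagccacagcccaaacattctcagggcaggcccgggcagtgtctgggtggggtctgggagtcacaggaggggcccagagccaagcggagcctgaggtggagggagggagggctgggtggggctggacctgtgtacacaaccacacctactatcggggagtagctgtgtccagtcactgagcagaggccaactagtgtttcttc
Anxa2, chr9:69453433-69453732, plus strand: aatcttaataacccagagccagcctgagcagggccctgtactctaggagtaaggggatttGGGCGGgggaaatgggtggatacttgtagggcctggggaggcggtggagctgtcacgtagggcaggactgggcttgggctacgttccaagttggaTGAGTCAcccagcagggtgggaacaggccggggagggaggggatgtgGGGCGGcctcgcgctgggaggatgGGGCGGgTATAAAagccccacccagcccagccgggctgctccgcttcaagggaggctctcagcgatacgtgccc
Anxa1, chr19:20390622-20390921, minus strand: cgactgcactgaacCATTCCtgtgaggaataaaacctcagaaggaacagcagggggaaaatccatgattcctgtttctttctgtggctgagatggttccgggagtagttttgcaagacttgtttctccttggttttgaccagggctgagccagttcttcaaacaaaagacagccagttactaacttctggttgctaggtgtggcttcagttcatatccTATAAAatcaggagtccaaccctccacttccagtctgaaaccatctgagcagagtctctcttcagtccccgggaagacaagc
Anxa11, chr14:25841905-25842204, plus strand: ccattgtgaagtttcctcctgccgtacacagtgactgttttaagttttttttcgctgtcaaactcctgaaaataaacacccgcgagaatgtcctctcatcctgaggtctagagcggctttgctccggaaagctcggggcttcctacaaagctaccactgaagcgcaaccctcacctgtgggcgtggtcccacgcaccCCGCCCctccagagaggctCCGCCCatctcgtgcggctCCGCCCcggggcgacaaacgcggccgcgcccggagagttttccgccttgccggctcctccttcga
The Anxa2 window held an AP-1 match at -95 from the start, GC boxes at -190, -48 and -24 and a TATA box at -17. In Anxa1 there was a TEAD match at -236 and a TATA box at -32, while Anxa11 held GC boxes at -53, -34 and -15 and no TATA box. None of the 4 motifs was found in the Anxa8 window, nor in that of Anxa5. Among all 8 annexins with a window, AP-1 was found for Anxa2 and Anxa10, TEAD for Anxa1, the GC box for Anxa2, Anxa4, Anxa7 and Anxa11, and the TATA box for Anxa1, Anxa2 and Anxa10. The shares of all 32851 RefSeq windows with a match were 7.81% for AP-1, 14.7% for TEAD, 35.7% for the GC box and 13.6% for the TATA box. None of the 4 motifs was found in the windows of all 5 lower annexins that had one, and a match is a run of letters, not a shown binding site.

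Genes that act with annexins were examined in 6 lists which, with the annexins Anxa9 and Anxa13, held 58 genes, of which 49 were tested. In SMC lines 13 of the 49 were lower at a limma adjusted p under 0.05 and 0 higher, against 3.03% and 0.156% of all features, and 30 had an unadjusted p under 0.05, as had 26.7% of features. The count of lower genes was 0 without pair 3 and 6 without pair 1. The median difference of the 49 genes was -1.37, beside 0.18 over all features. The lists were chosen with earlier results of these data known. The counts and adjusted p-values here and below therefore describe these genes and give no independent support.

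The S100 genes, calcium-binding proteins of which several bind annexins, held 4 of these 13, out of 8 tested, and the median of the 8 was -4.12. S100a10, the partner of annexin A2, had -5.16, -6.48 and -2.25 in SMC lines, against 5.64, 4.12 and 5.27 in non-SMC lines, differing by -9.64 ± 0.80 (SE, 3 pairs) with a limma adjusted p of 0.0200, and 2 of 3 SMC arrays had it well above background. Its order among the SMC lines, with replicate 3 highest, was that of Anxa2 for the highest line but not for the lowest. S100a11, which binds annexin A1, differed by -12.26 ± 0.73 (limma adjusted p = 0.0115), with 1 of 3 SMC signals well above background. Raising the dim signals to the array floor gave -11.61, and normexp gave -8.62. S100a6 differed by -12.52 ± 0.60 (limma adjusted p = 0.00821) and S100a4 by -5.24 ± 0.53 (limma adjusted p = 0.0286). S100a16, S100a13, S100a1 and S100b did not pass, with differences from -3.00 to -0.11.

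In the plasmin system, whose plasminogen binds annexin A2 at the cell surface, the urokinase receptor gene Plaur was lower in SMC lines. It had -5.06, -4.71 and -4.00 in SMC lines, against 3.13, 3.48 and 3.56 in non-SMC lines (-7.98 ± 0.31, limma adjusted p = 0.00704). Plau, Plat, the plasminogen receptor gene Plgrkt and Serpine2 did not pass, with differences of -5.33, -3.10, -0.17 and 0.75. For the genes tied to annexin A1, 1 of 5 was lower, Pla2g4a, the cytosolic phospholipase A2 that annexin A1 is known to inhibit. No SMC signal of Pla2g4a was well above background, and the gene was at least 438-fold lower in the main processing. Its fitted difference was -10.76 ± 0.39 (limma adjusted p = 0.00704), and -5.67 with normexp. The formyl peptide receptors through which annexin A1 signals, Fpr1, Fpr2 and Fpr3, entered no test, and the glucocorticoid receptor gene Nr3c1 differed by -0.04 ± 0.42 (SE).

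Membrane repair and scaffold genes held 6 lower genes of 10 tested, with a list median of -5.67. Myof, a ferlin of membrane repair, had no SMC signal well above background and was at least 2096-fold lower in the main processing. Its fitted difference was -11.58 ± 0.29 (limma adjusted p = 0.00704), and -7.88 with normexp. The other Myof probes differed by -11.71 and -8.67. Ahnak, a giant scaffold protein that binds annexin A2 with S100a10, had -2.57, -1.78 and -4.15 in SMC lines, against 5.54, 4.61 and 5.18 in non-SMC lines (-7.94 ± 0.66, limma adjusted p = 0.0200). The caveola genes Cav1 and Cavin1 differed by -8.93 ± 0.86 and -6.61 ± 0.29 (limma adjusted p = 0.0262 and 0.00746). Cav1 was detected on 2 of 3 SMC arrays. On the shared slide alone Cav1 and S100a4 did not pass (limma adjusted p = 0.183 and 0.123).

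No tested partner of annexins A7 and A11, and no tested gene of phosphatidylserine exposure, passed in the paired fit. Of 8 genes in the first list 0 were called, with 3 at an unadjusted p under 0.05, and the list's median was -0.30. Its largest differences were -2.24 ± 0.53 for the calcium-binding protein gene Sri (limma adjusted p = 0.117, and 0.0415 without the pair) and -1.08 ± 0.31 for the calpain small subunit gene Capns1 (limma adjusted p = 0.142). Of 10 genes that move phosphatidylserine, the ligand of annexin A5, between membrane leaflets, 0 were called in limma, 5 had an unadjusted p under 0.05, and the median was -0.52. The flippase gene Atp8a2 differed by 5.56 ± 0.82 (limma adjusted p = 0.0602), detected on 1 of 3 non-SMC arrays, and it passed with median scaling, with normexp and without pair 2 (limma adjusted p = 0.0153, 0.0156 and 0.0306). With normexp its difference was 2.73. The scramblase gene Plscr1 differed by -4.77 ± 0.98 (limma adjusted p = 0.105), and it passed with median scaling and on the shared slide (limma adjusted p = 0.0343 and 0.0435).

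**Figure D4:**
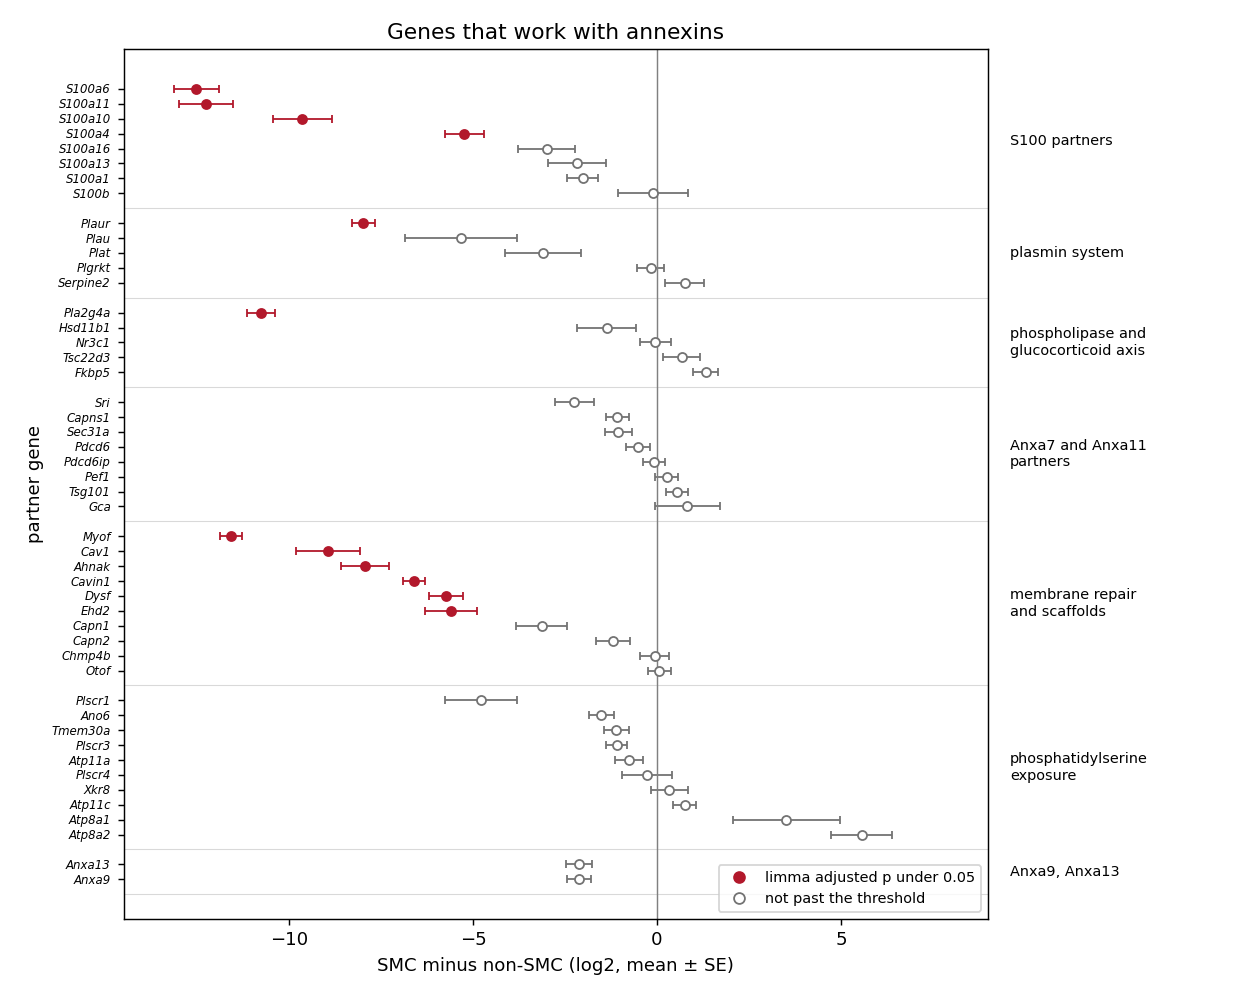
SMC minus non-SMC difference (log2, mean ± SE of the paired limma fit) of 48 genes from the lists of annexin partners, with red points for genes past an adjusted p of 0.05 and open points for the rest. The 12 red points all lie below 0 and belong to the S100, plasmin, phospholipase and membrane repair lists.

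The 2 mouse annexins outside the set of 10, Anxa9 and Anxa13, were on the array as well. Anxa9 had -3.16, -4.28 and -3.90 in SMC lines, against -1.55, -2.03 and -1.42 in non-SMC lines, or -2.12 ± 0.33 (SE), with a limma adjusted p of 0.0661 (0.0331 without the pair). Anxa13, an intestinal and renal annexin, had -6.17, -6.26 and -5.44 in SMC lines, of which 1 was well above background, against -3.95, -4.70 and -2.85 in non-SMC lines (-2.12 ± 0.35, limma adjusted p = 0.0731). With normexp its difference was -0.58. A second Anxa13 probe gave -1.60, with a gap of 0.08 between the groups. Anxa9 and Anxa13 thus both had separated groups with the SMC lines lower, as had 15.4% of all features, and neither passed in the paired fit. With median scaling Anxa9 passed (limma adjusted p = 0.0467).

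Profiles most like 2 of the annexins were searched among 11392 named genes detected on all 6 arrays, by the root mean square distance of centred log2 signals over the 6 arrays. Nearest to Anxa1 were Smim3 (1.13), Pdlim2 (1.32), Serpinb1a (1.38) and Pkp1 (1.53). For Anxa11, with the smallest absolute difference, they were Lypla2 (0.15), Snord35b (0.20), Glyctk (0.22) and Aldh4a1 (0.23). Among the annexins themselves, Anxa6 and Anxa7 were nearest (0.47), Anxa3 and Anxa8 lay 1.17 apart, and Anxa3 and Anxa11 were farthest apart (6.99). These distances describe 6 arrays and say nothing of shared function or control.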

How the data were processed

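RNA of 6 lines was hybridised to 1-colour (Cy3) Agilent arrays. Agilent's Feature Extraction 10.7.3.1 read the scans, per the file headers. The deposited processed intensity is background-subtracted and detrended within the array per the file headers, and not normalized between arrays. The deposited series table holds log2 values with equal quantiles in all columns (median 5.06). Each column correlated at 0.996 or more with its own array and at most 0.960 with another. The sources used here do not say how that table was made.

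Spots for control (1639 an array) or marked as outliers were left out, log2 signals of a probe's spots were averaged, a probe counting as well above background if most of its spots were, and the array's 75th percentile was subtracted. Of 41174 probes, 27479 received a symbol through the RefSeq table of GRCm38.p6. The brightest kept probe stood for a gene. The test was limma 3.58.1 in R 4.3.3 (lmFit, eBayes) with pair and group, two-sided, Benjamini-Hochberg adjusted over all features, threshold 0.05. Residual degrees of freedom were 2 (prior 2.07), so the number of arrays limits the precision. The pairing comes from the labels. Deviations from group means correlated at -0.0127, 0.136 and -0.00235 within pairs 1 to 3, which by itself does not show the pairing. The fit was tested on simulated data, with an outcome not reported here, and no result above rests on it.

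Folds written as "at least" divide the non-SMC mean by an SMC mean in which each signal was taken as the higher of its own value and the lowest signal well above background on its array. These folds hold for the main processing only, since the differences of Anxa8, Myof and Pla2g4a were smaller with normexp. The members and lists were chosen with earlier results of these data known. Named genes were all members, Anxa9 and Anxa13, up to 4 partners per list past the threshold with the largest difference (the 2 largest if none passed), and the nearest profiles. Other partner genes named in the text, and the marker genes, serve as values only. The values of 1 partner gene, which is in the counts, are not reported here. No mean signal column was used, so normexp (offset 50) took the median spot signal. Other alternatives were median scaling, quantile normalization, the deposited values, other detection filters, other treatment of probes, slide blocks and left-out lines.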

Additional observations from a re-analysis of the deposited data

How the results depend on the processing

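All 9 tested annexins kept the sign of their difference under every alternative run. Counts of calls depended on the fit. With the fit that has no replicate block, 4 annexins were lower, 16 partner genes were lower, and 274 features were higher and 975 lower, against 2, 13, 31 and 602 with the pair. Median scaling gave 4 annexins lower, 1 partner gene higher, and 239 features higher and 974 lower; normexp gave 4 annexins lower, 1 partner gene higher and 54 features higher. That partner gene was Atp8a2 in both. Requiring detection on all arrays, which removes Anxa3 and Anxa8 from the test, left 0 annexins lower, 5 partner genes lower, and 4 features higher and 135 lower. Without a filter 7 features were higher and 383 lower. Testing each probe gave 1 partner gene higher and 54 features higher, the slide block 9 features higher, and the shared slide alone 20 higher. With 1 pair or line left out, annexins called lower ranged from 0 to 5, partner genes from 0 to 20 lower and 0 to 1 higher, and features from 0 to 1559 higher and 0 to 1147 lower. Without pair 2, 521 features were higher and 495 lower, with 12 partner genes lower. Without the block, leaving out non-SMC replicate 1, SMC replicate 2 or non-SMC replicate 3 gave 98, 80 and 17 features higher, and leaving out non-SMC replicate 2 gave the highest counts. Without pair 3 all counts were 0. Every paired fit on 2 pairs had 1 residual degree of freedom, also the one without pair 1, in which 207 features were lower. The causes of these changes in the counts were not tested. Dim signals set the size of the Anxa3 and Anxa8 differences, -9.22 and -8.48 with normexp and -12.02 and -11.56 at the floor.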
